A study of Mus musculus with 18 samples.

Results

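The regions described here are partially methylated stretches of the mouse autosomes, with a mean methylation between 35 and 65 percent in wild-type (WT) mice in both splenic CD11b+ cells and splenic CD4+ cells. Each cell type has a table of regions of its own. A region of the CD11b+ table was paired with a region of the CD4+ table where the stretch they share covered at least 50% of both lengths, and the members were selected on the WT means, which had to lie in the window in both tables. Of 135766 autosomal pairs, 10064 were members, or 7.41%. Most other pairs were more methylated: 107342 had a WT mean above 65 percent in both cell types, 3606 had one below 35 percent in both, 14448 lay in the window in 1 cell type only, and 306 lay above it in one cell type and below it in the other.

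The methylation levels come from whole-genome bisulfite sequencing (WGBS), in which bisulfite converts unmethylated cytosines and spares methylated ones, of cells isolated from spleen on magnetic columns. Dnmt3aR878H/+ mice carried 1 Dnmt3a allele with the R878H change, whose expression Vav1-iCre limits to hematopoietic cells, and Dnmt3a+/+ mice were the WT controls. Control mice of that name were, in the transplant experiments of the study, either Cre+ Dnmt3a+/+ or Cre− Dnmt3a fl-R878H/+; which of them gave these libraries is not given in the sources used here. The mice were untreated as far as the labels say and, as the methods state for the study's mice in general, 8 to 10 weeks old, sex- and age-matched and of both sexes. There were 4 mice per genotype and cell type; the CD11b+ cells of Dnmt3aR878H/+ mice have 6 sample entries for their 4 replicate numbers, counted as 4 mice. The S numbers in the sample titles form a lower and a higher series. In CD4+ cells all mutant entries carry the higher and most WT entries the lower one. In CD11b+ cells all WT and most mutant entries carry the lower one. What the series stand for is not given, and their part in the differences below was not tested.

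Each value below is the authors' mean over the mice of a group, in percent, and "loss" is the WT mean minus the Dnmt3aR878H/+ mean in percentage points, so that a negative loss is a higher mean in the mutant. The study states a coverage for its libraries, but neither a value per mouse nor the reads behind a region's mean are in the tables. The first mean of each table was read as WT, the more methylated genotype in the study's plots, so that all directions given here depend on it. The authors' own tests of genotype, in columns of these tables, were not used, so no mean has an error here and no difference was set against the spread between mice. The WT mean also enters the loss, so the losses of the members describe a set selected on part of the same contrast and were given no test. Quartiles below are over regions, which are not replicates. In such bulk samples a change within cells and a change in the mixture of cells cannot be told apart.

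The labelled cell types were checked against the WT means at marker genes, over pairs inside a gene or within 2 kb of it. Of 10 myeloid genes 8 had a pair, and the mean was lower in CD11b+ cells at 7 of these. Of 10 T cell genes 9 had a pair, and the mean was lower in CD4+ cells at 7. Of 6 B cell genes 4 had a pair, and 3 were lower in CD11b+ cells. Over all pairs the WT mean was also mostly lower in CD11b+ cells, with a median CD4+ minus CD11b+ difference of 1.23 points (quartiles -1.39 and 5.05). The myeloid and B cell genes thus went the way of the pairs as a whole, and the myeloid genes alone say little about the label. The T cell genes went the other way.

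DNMT3A is a de novo DNA methyltransferase: it adds methyl groups to CpG dinucleotides that carry none, while DNMT1 copies existing methylation onto the new strand after replication. In mouse tissues most CpGs are highly methylated and CpG-rich promoters are mostly unmethylated, so an intermediate mean marks stretches where cells, alleles or neighbouring CpGs differ from one another. Such stretches are known from the shores of CpG islands, from enhancers used by only some of the cells, and from imprinted control regions, where the copy from a single parent is methylated.

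The sequences of 8 members come first, to show the CpGs of regions that differed in their losses. They are 2 of the 5 regions named in each of 4 groups: with a large loss in both cell types (Prkce, Mn1), with a higher mean in the mutant in both (Lrrc36, Mad1l1), and with opposite or very unequal differences in CD4+ cells (Gfra1, Nfatc2) and in CD11b+ cells (Slco3a1, Slc39a11). Each is the plus strand of mm10, at most 240 bases from the middle of the shared stretch, in lower case with every CpG in capitals. All of them lie in introns of the gene named except the region near Mn1, which is intergenic.

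Prkce, chr17:86329356-86329595: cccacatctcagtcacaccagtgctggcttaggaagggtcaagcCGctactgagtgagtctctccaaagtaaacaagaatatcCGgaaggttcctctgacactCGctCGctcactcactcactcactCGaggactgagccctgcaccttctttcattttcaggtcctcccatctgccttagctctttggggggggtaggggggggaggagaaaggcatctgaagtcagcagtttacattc
Mn1, chr5:111531404-111531591: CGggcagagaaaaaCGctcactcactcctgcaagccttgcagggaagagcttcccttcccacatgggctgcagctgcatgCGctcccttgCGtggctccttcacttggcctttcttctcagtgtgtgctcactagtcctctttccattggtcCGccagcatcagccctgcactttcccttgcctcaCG
Lrrc36, chr8:105445633-105445872: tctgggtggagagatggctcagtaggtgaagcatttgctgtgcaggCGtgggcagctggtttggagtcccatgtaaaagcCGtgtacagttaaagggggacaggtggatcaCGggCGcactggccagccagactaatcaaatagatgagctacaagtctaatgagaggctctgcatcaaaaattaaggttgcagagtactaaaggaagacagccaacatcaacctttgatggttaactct
Mad1l1, chr5:140264138-140264377: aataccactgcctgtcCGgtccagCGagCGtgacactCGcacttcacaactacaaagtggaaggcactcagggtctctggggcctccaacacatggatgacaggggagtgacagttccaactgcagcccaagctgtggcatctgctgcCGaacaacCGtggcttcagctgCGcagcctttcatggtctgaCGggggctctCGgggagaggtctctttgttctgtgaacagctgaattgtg
Gfra1, chr19:58435874-58436113: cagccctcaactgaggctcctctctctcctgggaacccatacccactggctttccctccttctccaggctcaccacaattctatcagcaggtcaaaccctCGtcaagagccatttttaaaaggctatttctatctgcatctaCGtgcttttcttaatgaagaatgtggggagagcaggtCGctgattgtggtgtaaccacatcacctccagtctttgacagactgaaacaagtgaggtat
Nfatc2, chr2:168500824-168501063: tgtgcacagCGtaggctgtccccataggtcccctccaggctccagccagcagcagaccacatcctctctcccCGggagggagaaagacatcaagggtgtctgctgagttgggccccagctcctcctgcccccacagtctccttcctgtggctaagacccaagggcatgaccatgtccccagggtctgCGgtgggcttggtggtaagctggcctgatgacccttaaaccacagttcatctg
Slco3a1, chr7:74372415-74372654: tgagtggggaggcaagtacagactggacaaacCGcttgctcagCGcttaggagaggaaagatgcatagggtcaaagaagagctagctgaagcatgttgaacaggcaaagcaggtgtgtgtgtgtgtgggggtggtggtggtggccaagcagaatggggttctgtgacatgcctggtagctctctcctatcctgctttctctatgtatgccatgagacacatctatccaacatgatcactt
Slc39a11, chr11:113496739-113496786: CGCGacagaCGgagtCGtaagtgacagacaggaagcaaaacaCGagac
The printed bases of Prkce are 22.8% of that member, so the values given for it are those of a longer region.

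A second set shows the contrast within CpG-dense members that is described further on. Inpp5f and Igf2r hold the imprinted members with the most cytosines. The members in Nespas and at the start of Kcnq1ot1, which are CpG-dense and imprinted, and the one near Hoxa4 were picked after their values were seen.

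Inpp5f, chr7:128672645-128672884: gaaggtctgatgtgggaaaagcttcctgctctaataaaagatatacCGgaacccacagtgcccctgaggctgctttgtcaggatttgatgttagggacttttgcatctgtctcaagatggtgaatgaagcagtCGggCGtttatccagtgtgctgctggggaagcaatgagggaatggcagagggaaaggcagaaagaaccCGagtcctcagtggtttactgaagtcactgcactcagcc
Igf2r, chr17:12713877-12714116: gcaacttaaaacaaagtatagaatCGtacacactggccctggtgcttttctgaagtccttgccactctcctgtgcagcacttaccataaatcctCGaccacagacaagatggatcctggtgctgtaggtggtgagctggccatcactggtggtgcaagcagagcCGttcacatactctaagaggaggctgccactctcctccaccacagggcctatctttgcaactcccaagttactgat
Nespas, chr2:174285067-174285134: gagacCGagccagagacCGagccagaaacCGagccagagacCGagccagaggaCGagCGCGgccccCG
Kcnq1ot1, chr7:143295858-143296048: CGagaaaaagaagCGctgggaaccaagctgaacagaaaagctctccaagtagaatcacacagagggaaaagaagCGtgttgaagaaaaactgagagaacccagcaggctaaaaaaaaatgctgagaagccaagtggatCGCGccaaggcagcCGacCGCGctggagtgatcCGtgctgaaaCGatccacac
Hoxa4, chr6:52190772-52191011: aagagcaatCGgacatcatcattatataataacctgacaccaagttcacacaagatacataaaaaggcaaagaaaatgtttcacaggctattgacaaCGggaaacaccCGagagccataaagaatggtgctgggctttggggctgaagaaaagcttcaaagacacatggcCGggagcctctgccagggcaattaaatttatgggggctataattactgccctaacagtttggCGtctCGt
In CD11b+ cells the dense member at Kcnq1ot1 went from a WT mean of 55.3 percent to a mutant mean of 51.3 percent, and the member near Hoxa4 from 52.2 to 14.1 percent.

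Nearly all members were less methylated in Dnmt3aR878H/+ cells. The median WT mean was 51.6 percent in CD11b+ cells and 55.4 percent in CD4+ cells, and the median mutant mean was 33.5 and 35.5 percent. The loss had a median of 16.9 points in CD11b+ cells (quartiles 11.8 and 22.5) and 17.7 points in CD4+ cells (quartiles 12.7 and 23.5). The mean was lower in the mutant in both cell types at 9883 members, or 98.2%, where the same held for 94.8% of all pairs. It was higher in the mutant in both at 52 members, or 0.517%, against 0.642% of all pairs. All pairs are regions drawn by the program metilene from the difference between the genotypes. The smallest listed difference was 0.1 points in each cell type. Partially methylated sequence without a listed region in both cell types was not covered, so these shares do not describe the whole genome. The loss of a single member ran from -32.8 to 48.2 points in CD11b+ cells and from -34.4 to 52.0 points in CD4+ cells.

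A loss above 20 points, the size that the study required of a differentially methylated region, was found at 3505 members in CD11b+ cells, or 34.8%, where 12.7% of all pairs had one. The study's other criteria, on the number of CpGs and the false discovery rate, were not applied. The shares here are therefore not shares of its differentially methylated regions. In CD4+ cells it was found at 3956 members, or 39.3%, against 12.9% of all pairs. Among the 277 members with more than 20 cytosines in both tables the shares were 66.1% and 67.5%. The share among all pairs with more than 20 cytosines was not computed. The 12.7% and 12.9% cover pairs of every size and are no background for these 277 members. In both cell types together a loss above 20 points was found at 2483 members, or 24.7%, against 8.1% of all pairs. Since the rule used the WT means, these shares are a description: a region that starts at 10 percent cannot lose 20 points.

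**Figure D1:**
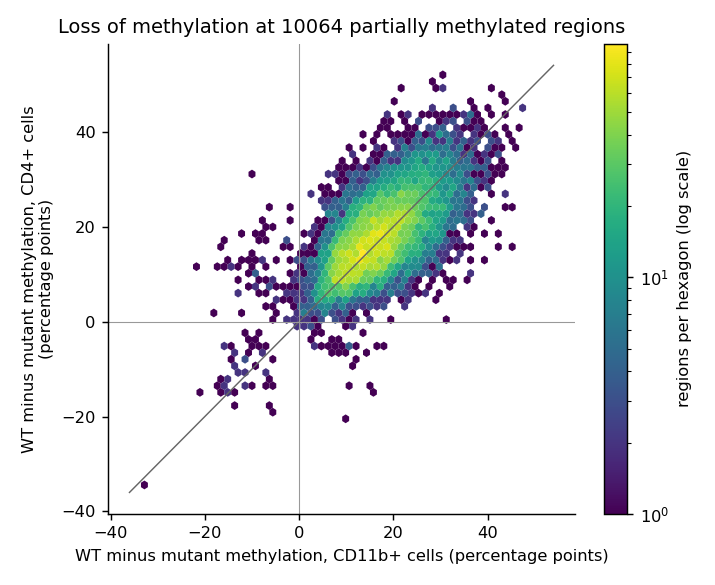
Loss of methylation (WT minus Dnmt3aR878H/+ mean, percentage points) at the 10064 members, CD11b+ cells on the x axis and CD4+ cells on the y axis, with the number of regions per hexagon in colour on a log scale. The cloud lies along the line of equal loss with medians of 16.9 and 17.7 points, and 52 members lie in the lower left quadrant, where the mutant mean was higher in both cell types.

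The losses were largest in the middle of the methylation range. When all pairs with both WT means in the same 10-point bin were pooled, the median loss was 0.925 points in CD11b+ cells and 1.27 points in CD4+ cells below 10 percent. It was 16.5 and 16.5 points at 40 to 50 percent, 17.4 and 17.9 points at 50 to 60 percent, and 16.4 and 17.2 points at 60 to 70 percent. Above 90 percent it was 5.10 and 5.15 points. Taken as a percent of the WT mean the order was another one: at 10 to 20 percent the pairs had lost 54.3 and 50.8 percent of their methylation, at 50 to 60 percent 31.6 and 32.5 percent, and above 90 percent 5.44 and 5.47 percent. The members as a whole had lost 33.4 percent of their WT mean in CD11b+ cells and 33.5 percent in CD4+ cells.

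**Figure D2:**
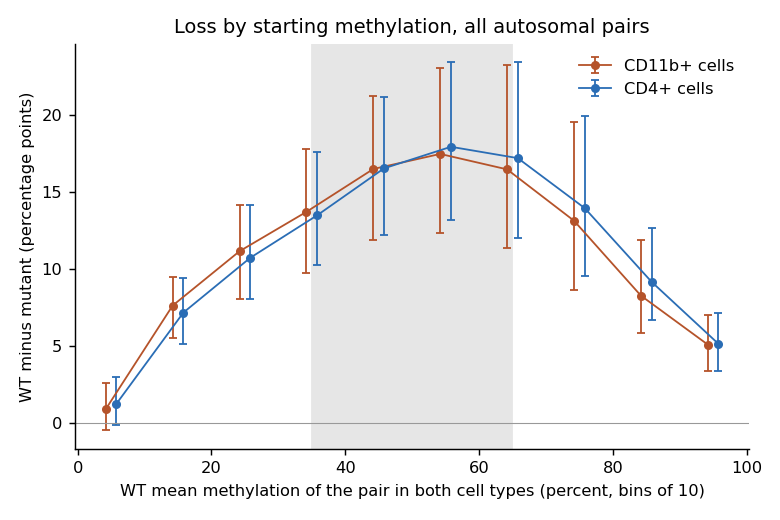
Median loss with quartiles over regions (percentage points) of all autosomal pairs by WT mean in bins of 10 percent, for pairs with both cell types in the same bin; the shaded window is 35 to 65 percent. Both curves have their highest median, 17.4 and 17.9 points, at 50 to 60 percent.

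The edges of the window did not coincide with a step. The 329 members whose lower WT mean was 35 to 36 percent had median losses of 14.7 points in CD11b+ and 15.2 points in CD4+ cells, and the 285 pairs just outside, at 34 to 35 percent, 14.1 and 16.2 points. At the upper edge, the 872 members whose higher WT mean was 64 to 65 percent had median losses of 17.3 and 18.4 points, and the 888 pairs just outside, at 65 to 66 percent, 16.9 and 18.4 points.

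In percentage points the loss was slightly larger in CD4+ cells. The CD4+ minus CD11b+ difference of the losses had a median of 0.918 points (quartiles -3.13 and 5.18), and 5707 members, or 56.7%, had the larger loss in CD4+ cells. At 5761 members, or 57.2%, both losses lay within 5 points of each other, while 817 members had a loss over 10 points larger in CD4+ cells and 477 over 10 points larger in CD11b+ cells. On each of the 19 autosomes the median difference was positive, from 0.4 to 1.53 points. Across the members the losses of the cell types had a Spearman correlation of 0.639 (n = 10064 regions, a description, since neighbouring regions and all regions of a library share their mice and depth).

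This order went with the WT means. CD4+ cells started higher, with a median WT difference of 2.58 points. Where the WT mean was over 10 points higher in CD4+ cells, at 2270 members, the median loss was 17.2 points in CD11b+ and 21.1 points in CD4+ cells. Where it was at least 10 points higher in CD11b+ cells, at 890 members, the losses were 16.1 and 13.7 points. At the 1825 members with WT means within 2 points of each other the losses were 16.6 and 16.9 points, with a median difference of 0.179 points. As a percent of the WT mean the median difference was -0.458, and 4848 members, or 48.2%, had the larger relative loss in CD4+ cells. A WT mean is part of both the difference in starting level and the difference in loss, so an error in it moves both together; its size cannot be given without values per mouse.

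Denser members had lost more. CpG density was counted in the mm10 sequence of the shared stretch, and the members were divided into 4 groups of about equal size at 1.29, 1.72 and 2.38 CpGs per 100 bases. From the sparsest to the densest group the median loss was 14.0, 16.3, 17.9 and 19.6 points in CD11b+ cells, and 15.0, 17.0, 18.9 and 20.6 points in CD4+ cells. The median WT mean moved little and in the other direction, from 52.8 to 50.9 percent in CD11b+ cells and from 55.9 to 54.8 percent in CD4+ cells. The share of members with a loss above 20 points was 21.1% in the sparsest and 48.4% in the densest group in CD11b+ cells, against 26.0% and 52.1% in CD4+ cells. The quartiles of the losses overlapped widely, from 9.68 to 18.9 points in the sparsest and from 14.3 to 25.8 points in the densest group in CD11b+ cells. Density and loss had Spearman correlations of 0.264 and 0.250 over the 10064 members.

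The difference between the cell types had no such gradient. The median CD4+ minus CD11b+ loss was 1.02, 0.799, 0.823 and 0.996 points in the 4 density groups, and its Spearman correlation with density was -0.00158 over the 10064 members.

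In a finer division the median loss levelled off. In CD11b+ cells it was 12.9 points at up to 1 CpG per 100 bases, 18.8 points at 2 to 3, 19.8 points at 3 to 4, 19.5 points at 4 to 6, 21.2 points at 6 to 8 and 18.96 points above 8, where 54 members remained. In CD4+ cells the same bins had 14.2, 19.8, 20.9, 20.96, 21.3 and 18.8 points. At the dense end the members also differed more in direction: 98.8% were lower in the mutant in both cell types at up to 1 CpG per 100 bases and 77.8% above 8. Of the 54 above 8, 6 were higher in the mutant in both cell types, 3 in CD11b+ cells alone and 3 in CD4+ cells alone. Among those that went opposite ways were imprinted members at Grb10, Igf2r, Inpp5f and Impact, so this spread is partly that of imprinted loci. The 62 members with the make-up of a CpG island (at least 200 bases, 50% GC and an observed-to-expected CpG ratio of 0.6) had median losses of 24.7 and 23.9 points.

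Members with more cytosines in the tables also had larger losses, and density and number go together, so the gradient was looked at within 1 number. A table counts the cytosines of both strands, and 3111 members had 10, the fewest listed, in both tables. Among these the median loss was 14.2, 15.7, 17.7 and 17.9 points by density group in CD11b+ cells and 15.4, 16.7, 18.5 and 19.1 points in CD4+ cells. Over all members the median loss was 16.1 and 17.0 points at a mean of under 11 cytosines over both tables and 27.1 and 26.4 points at 31 or more, where there were 62 members. The regions were drawn by the program metilene from the difference between the groups, which links a region's extent to its loss; the part of that link in these values was not tested.

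Outside the window the gradient of the median loss in points was smaller or ran the other way. With the same cuts, the pairs with WT means above 65 percent in both cell types had median losses of 6.91, 7.44, 7.86 and 7.83 points in CD11b+ cells and 7.51, 7.77, 8.05 and 7.75 points in CD4+ cells. The share of these pairs with a loss above 20 points rose with density, from 3.51% to 17.5% in CD11b+ cells and from 3.38% to 15.1% in CD4+ cells. In the pairs below 35 percent the medians ran from 8.31 to 4.17 points in CD11b+ cells and from 8.40 to 4.79 points in CD4+ cells, with WT medians in CD11b+ cells that ran from 21.2 percent in the sparsest to 9.62 percent in the densest group. As a percent of the WT mean, the median loss of the pairs below the window rose from 42.7% to 48.5% in CD11b+ cells and from 41.2% to 45.7% in CD4+ cells.

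The median losses differed less with distance to genes than with density. Between members within 1 kb and over 100 kb from a protein-coding start the difference was 1.65 points in CD11b+ and 1.85 points in CD4+ cells, and 3.03 and 3.17 points with the starts of all annotated genes, against 5.55 and 5.53 points between the densest and the sparsest group. From members within 1 kb of a protein-coding transcription start, through 1 to 5, 5 to 20 and 20 to 100 kb, to those over 100 kb away, the median loss was 17.4, 17.4, 17.1, 16.8 and 15.7 points in CD11b+ cells and 18.2, 18.6, 17.8, 17.6 and 16.3 points in CD4+ cells. The 5 bins held 1506, 1531, 2402, 3248 and 1377 members. The median difference between the cell types was 1.20, 0.976, 0.901, 0.850 and 0.809 points in the same order. Distance and loss had Spearman correlations of -0.0606 and -0.0794 over the 10064 members.

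The density gradient was present at every distance. Within 1 kb of a start the median loss was 14.1 points in the sparsest and 19.5 points in the densest group in CD11b+ cells, and 15.5 and 20.9 points in CD4+ cells. Over 100 kb away it was 13.1 and 18.8 points in CD11b+ cells, and 13.7 and 19.3 points in CD4+ cells. Within the densest group the distance bins differed by less than 2 points in CD11b+ cells, from 18.8 to 20.3 points, and from 19.3 to 22.2 points in CD4+ cells.

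**Figure D3:**
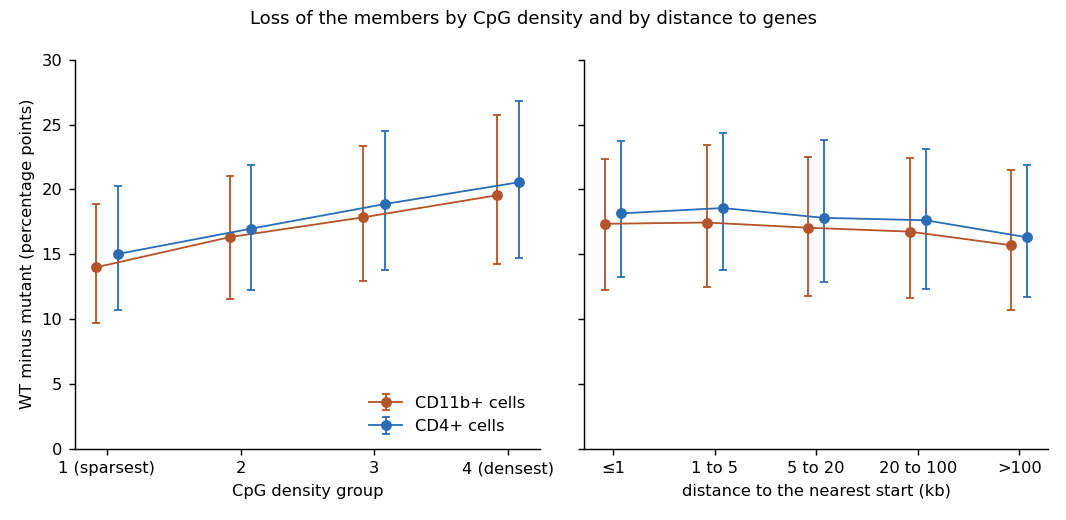
Median loss of the members with quartiles over regions (percentage points), by CpG density group (left) and by distance to the nearest protein-coding transcription start (right), for CD11b+ and CD4+ cells. The medians run from 14.0 to 19.6 and from 15.0 to 20.6 points over the density groups, and from 17.4 to 15.7 and from 18.2 to 16.3 points between the nearest and the farthest bin.

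The members lay nearer to genes and in CpG-richer sequence than the pairs as a whole. Promoters, here within 1 kb of a protein-coding start, held 15.0% of the members and 6.16% of all pairs. Exons held 6.36% and 8.41%, introns 36.3% and 40.9%, and the rest of the genome 42.4% and 44.5%. The median distance to a start was 16.8 kb for members and 27.0 kb for all pairs. The median density was 1.72 CpGs per 100 bases against 1.44, the median GC content 47.9% against 45.8%, and the median length of the shared stretch 430 bases against 450. Sequence that is mostly soft-masked, as repeats are, made up 2.69% of the members and 6.31% of all pairs. Of the next pairs within 10 kb of a member 10.4% were members too, and of those beside other pairs 8.03%. The share of pairs that were members ran from 6.60% on chromosome 3 to 8.39% on chromosome 7.

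By class, the median loss was 17.4 points at promoters, 17.0 in exons, 17.4 in introns and 16.2 in intergenic sequence in CD11b+ cells, and 18.2, 17.96, 18.04 and 17.3 points in CD4+ cells. The promoter members were lower in the mutant in both cell types at 99.1%.

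The members with the largest loss in both cell types went from above 54 percent to below 17 percent. The first lies in an intron of Prkce, which encodes protein kinase C epsilon (chr17:86328950-86330001, 19 CpGs): its means were 64.3 percent in WT and 17.0 percent in mutant CD11b+ cells, and 59.9 and 14.6 percent in CD4+ cells. They rest on 25 and 27 cytosines, fewer than both strands of these CpGs hold. The second is intergenic, 113.96 kb from the start of Mn1, a transcriptional coregulator gene found in leukemia fusions (chr5:111531404-111531591), with 54.5 and 6.33 percent in CD11b+ cells and 58.6 and 13.2 percent in CD4+ cells. The other three lie in introns of Shoc2, a scaffold of RAS signalling, and of Maml3, a Notch coactivator, and 968 bases from a start of Tmem51. Their losses were 44.0, 43.6 and 43.5 points in CD11b+ cells and 44.2, 47.4 and 46.7 points in CD4+ cells. In both cell types the mutant mean of each of the 5 lay far below the window.

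The members with the largest numbers of cytosines were losers too. The one with most over both tables covers an exon of Mn1 itself (chr5:111418873-111420081, 77 CpGs), with means of 52.9 and 12.7 percent in CD11b+ cells and 53.7 and 24.6 percent in CD4+ cells. These means rest on 61 and 51 cytosines, so on part of its CpGs. The next 4 lie in an exon of Kifc2 near Foxh1, which encodes a transcription factor of Nodal signalling, and between genes near Gm5447, the collagen gene Col14a1 and the butyrophilin gene Btn2a2. Their losses were 32.6, 32.1, 41.8 and 38.1 points in CD11b+ cells and 37.7, 27.5, 38.0 and 32.02 points in CD4+ cells.

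At the other end, a member in an intron of Lrrc36 (chr8:105445628-105445878) was far more methylated in the mutant, with 43.2 percent in WT and 76.1 percent in mutant CD11b+ cells and 47.4 and 81.8 percent in CD4+ cells. The loss here, -32.8 and -34.4 points, was also the lowest of all members in each cell type. The next was an intergenic member whose nearest start is that of Dsc3, a desmosomal cadherin gene, far off at 1284 kb, with losses of -16.9 and -15.3 points. The third lies in an intron of Mad1l1, a spindle checkpoint gene, and went from 55.6 to 77.0 percent in CD11b+ cells and from 36.4 to 51.1 percent in CD4+ cells. A pair of neighbouring members 16.6 and 16.2 kb from Erich3 had losses of -15.5 and -14.9 points in CD11b+ cells and -14.6 and -14.2 points in CD4+ cells.

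Most of the members with a higher mutant mean in both cell types were CpG-dense. Of these 52 members, 40 belonged to the densest of the 4 groups, where 64 of the 142 members that were higher in CD11b+ cells and 55 of the 91 that were higher in CD4+ cells also lay. The median density of the 52 was 4.19 CpGs per 100 bases against 1.72 over all members. Their median distance to a start was 42.0 kb, their median losses were -11.7 and -10.2 points, and at 43 of them the mean was higher by over 5 points in each cell type. Another 90 members were higher in the mutant in CD11b+ cells and lower in CD4+ cells, and 39 the reverse.

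The members that differed most between the cell types changed in opposite directions in 8 of 10 cases, 5 with the larger loss in CD4+ cells and 3 with the larger loss in CD11b+ cells; the other two, in Slco3a1 and Slc39a11, were lower in the mutant in both and differed in size. The largest CD4+ minus CD11b+ difference, 40.05 points, was in an intron of Gfra1, a receptor gene for a neurotrophic factor (chr19:58435813-58436174), where the mean went from 48.9 to 58.3 percent in CD11b+ cells and from 56.2 to 25.5 percent in CD4+ cells. In an intron of Nfatc2, which encodes an NFAT transcription factor of activated T cells (chr2:168500733-168501155), it went from 41.2 to 63.1 percent in CD11b+ cells and from 48.1 to 35.7 percent in CD4+ cells. In an intron of Bcl11b, a transcription factor gene of the T cell lineage, it went from 42.5 to 58.4 percent in CD11b+ cells and from 54.9 to 37.5 percent in CD4+ cells. The members in an exon of Vcpip1, a deubiquitinase gene, and 12.7 kb from Srrm1, a splicing gene, had losses of -17.0 and -12.3 points in CD11b+ cells and 15.9 and 18.4 points in CD4+ cells. All 5 were higher in the mutant in CD11b+ cells and lower in CD4+ cells. Each mean covers the cytosines of its own cell type's region, which need not be the same ones. Their numbers in CD11b+ and CD4+ cells were 10 and 10 in Gfra1, 12 and 13 in Nfatc2 and 10 and 23 in Bcl11b. In Vcpip1 they were 10 and 13, and near Srrm1 10 and 10.

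In the reverse direction, the member near the start of Impact, an imprinted gene of translational control, had losses of 15.4 points in CD11b+ and -15.4 points in CD4+ cells. The member in an intron of Slco3a1, an anion transporter gene (chr7:74372343-74372726), went from 64.6 to 33.4 percent in CD11b+ cells and from 43.1 to 42.1 percent in CD4+ cells. At a start of Inpp5f, an inositol phosphatase gene with an imprinted transcript, the losses were 9.27 and -20.1 points. In an intron of Slc39a11, a zinc transporter gene (chr11:113496739-113496786), they were 44.7 and 15.5 points. The fifth lies in an intron of Npas2, a circadian transcription factor gene, 22.2 kb from the start of Rpl31, with 15.3 and -13.6 points. At 4 of the 5 the WT mean was at least 20 points higher in CD11b+ cells. The cytosines behind the CD11b+ and CD4+ means were 10 and 10 in Slco3a1 and in Npas2. They were 13 and 14 at Inpp5f and 12 and 10 in Slc39a11. At Impact the cytosines numbered 10 and 25, while the shared stretch holds 35 CpGs. The opposite signs there thus rest on part of its CpGs, which need not be the same ones in both cell types.

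**Figure D4:**
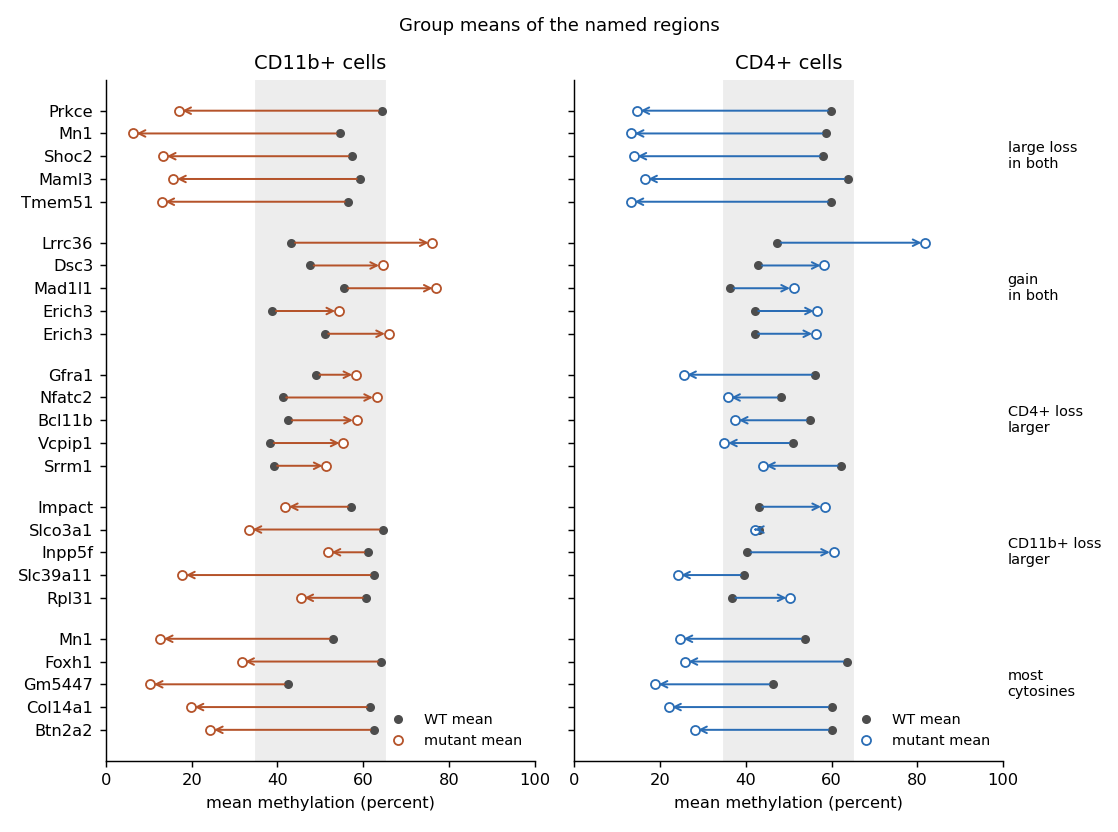
Group means (percent) of the 25 regions named by size or number of cytosines, WT as filled and Dnmt3aR878H/+ as open points joined by an arrow, CD11b+ cells left and CD4+ cells right, the window of 35 to 65 percent shaded. The first 5 regions end below 17 percent in both cell types, the next 5 end above their WT mean, and the 5 from Gfra1 to Srrm1 point right in CD11b+ and left in CD4+ cells.

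Members at imprinted genes had smaller median losses than the members as a whole. Imprinted genes are expressed from the copy of a single parent, and many carry a CpG-rich control region that is methylated on the maternal or on the paternal copy alone. Of 45 listed imprinted genes 41 had a pair inside the gene or within 5 kb of its start and 17 had a member; 35 of 280 such pairs were members, or 12.5%, against 7.41% of all pairs. The median WT mean of the 35 was 54.5 percent in CD11b+ cells and 53.7 percent in CD4+ cells, and the median loss was 11.4 and 10.6 points, against 16.9 and 17.7 points over all members. At 26 of the 35, or 74.3%, the mean was lower in the mutant in both cell types, against 98.2% of all members. At 2, or 5.71%, it was higher in both, against 0.517% of all members. A loss above 20 points was found at 5 in CD11b+ cells, or 14.3%, and at 6 in CD4+ cells, or 17.1%. Over all members these shares were 34.8% and 39.3%.

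The gap was widest among the CpG-dense members. In the group of highest CpG density, the 25 imprinted members had median losses of 9.47 and 8.88 points, and the other 2480 members 19.8 and 20.7 points. In the other density groups the 10 imprinted members had 14.6 and 12.9 points and the other 7549 members 16.1 and 16.9 points. At promoters the 16 imprinted members had 8.99 and 9.07 points, none above 20 points in either cell type, and the other 1490 members had 17.4 and 18.2 points, with 534 and 610 above 20. Several of these imprinted members are separate stretches of the same loci, such as Grb10, Gnas and Inpp5f, so the loci are fewer than the members. The split by density was chosen after the values were seen, and the list of imprinted genes was drawn up with earlier results of these data known.

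Single imprinted loci show the range. The member at the start of Kcnq1ot1, the antisense transcript of Kcnq1 (chr7:143295858-143296048), holds 11 CpGs. Its means were 55.3 and 51.3 percent in CD11b+ cells and 58.2 and 51.8 percent in CD4+ cells, over 12 and 21 cytosines. In an intron of Trappc9, at Peg13 (chr15:72809718-72809896, 12 CpGs) the means were 59.6 and 52.2 percent, and 54.3 and 45.5 percent, over 13 and 20 cytosines. Both strands are counted, so these means rest on part of the cytosines of these CpGs. A dense member in Nespas, antisense to Gnas, had 54.96 and 40.6 percent in CD11b+ cells and 40.2 and 39.4 percent in CD4+ cells. In an intron of Igf2r that overlaps its antisense transcript Airn (chr17:12741025-12741450), the mutant mean was higher in both cell types, with 51.6 and 58.6 percent in CD11b+ cells and 43.2 and 55.3 percent in CD4+ cells; the member near Meg3, named after its values were seen, was the other of the 2, with losses of -13.1 and -10.9 points. The imprinted member with the most cytosines, in an intron of Inpp5f (chr7:128672436-128673094), had losses of 30.1 and 22.1 points and lies 14.5 kb from a start, and the next, in an exon of Igf2r (chr17:12713449-12714545), had 14.9 and 23.0 points. At Grb10, a growth factor receptor adaptor gene, 2 members at starts with 17 and 20 cytosines in CD11b+ cells had losses of 8.57 and 13.6 points there and of 12.2 and 11.2 points in CD4+ cells. Of the other members near a Grb10 start, 2 with 10 cytosines each in CD11b+ cells had a higher mutant mean there, with losses of -7.12 and -18.6 points, against 13.3 and 1.55 points in CD4+ cells; these were picked after their values were seen. Members 2.24 kb from a start of Gnas and 2.31 kb from Cdkn1c, a cell cycle inhibitor gene, had 18.5 and 11.4 points in CD11b+ cells and 10.6 and 12.0 points in CD4+ cells.

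The Hox clusters were at the other end of the lists. These genes encode the transcription factors that pattern the body axis, several of which act in blood stem cells. Of 39 Hox genes 29 had a pair and 15 a member, and 13 of 62 pairs were members. All 13 were lower in the mutant in both cell types, with a median loss of 21.8 and 21.6 points, and 7 lost over 20 points in each cell type, 6 of them in both. Of all members 98.2% were lower in both, and 34.8% and 39.3% lost over 20 points. The member 674 bases from a start of Hoxa4 went from 52.2 to 14.1 percent in CD11b+ cells and from 61.4 to 29.6 percent in CD4+ cells. The member at a start of Hoxa6, with 38 and 45 cytosines, had losses of 36.6 and 34.6 points, and that near Hoxb4 had 35.1 and 42.3 points. The member with the smallest loss lies near Hoxb9, with 9.73 and 8.02 points. These examples were picked after their values were seen.

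The clustered protocadherins, cell adhesion genes whose promoters are chosen stochastically, had 7 members among 42 pairs, or 16.7%, against 7.41% of all pairs. Their median losses were 12.5 and 8.75 points. None of them lost over 20 points, where 34.8% and 39.3% of all members did. At 1 of the 7 the mutant mean was higher in both cell types, as at 0.517% of all members. Germline genes had 3 members among 59 pairs, or 5.08%. Their losses were 3.80 to 14.9 points in CD11b+ cells and 2.98 to 18.7 points in CD4+ cells.

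At lineage genes 4 of 34 pairs of the myeloid list were members, or 11.8%, 4 of 36 of the T cell list, or 11.1%, and 6 of 71 of the B cell list, or 8.45%, against 7.41% of all pairs. The loci singled out here and in the next paragraph were picked after their values were seen. The 4 myeloid members, at Spi1, Itgam, Cebpe and Csf1r, were lower in the mutant in both cell types, as were 98.2% of all members. Their median losses were 12.5 points in CD11b+ and 19.3 points in CD4+ cells. The member in an intron of Spi1, the gene of the myeloid transcription factor PU.1, had losses of 14.9 and 30.6 points. Of the 4 T cell members 3 lie in Bcl11b and 1 in Cd28, a costimulatory receptor gene, with median losses of 14.4 and 19.9 points. The 6 B cell members lie in Pax5 and Ebf1, transcription factor genes of that lineage, with median losses of 15.6 and 16.7 points; 1 of them, in Ebf1, had -12.4 points in CD11b+ cells and 5.90 points in CD4+ cells.

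The genes of methylation enzymes and their partners had 5 members among 76 pairs, or 6.58%, against 7.41% of all pairs. Their median losses were 12.5 and 13.8 points. The member in Dnmt3a itself had losses of 11.8 and 10.1 points, the one in Dnmt1 16.9 and 15.0 points, and those in Tet1, which encodes an enzyme that oxidizes methylcytosine, 12.5 and 22.0 points in CD11b+ cells and -5.75 and 24.5 points in CD4+ cells. The mTOR list, which the study's interest prompted, had 8 members among 142 pairs, or 5.63%. All 8 were lower in the mutant in both cell types, as were 98.2% of all members, with median losses of 17.0 and 16.5 points. The one near Tsc1, an inhibitor of the pathway, had 28.7 and 39.1 points.

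**Figure D5:**
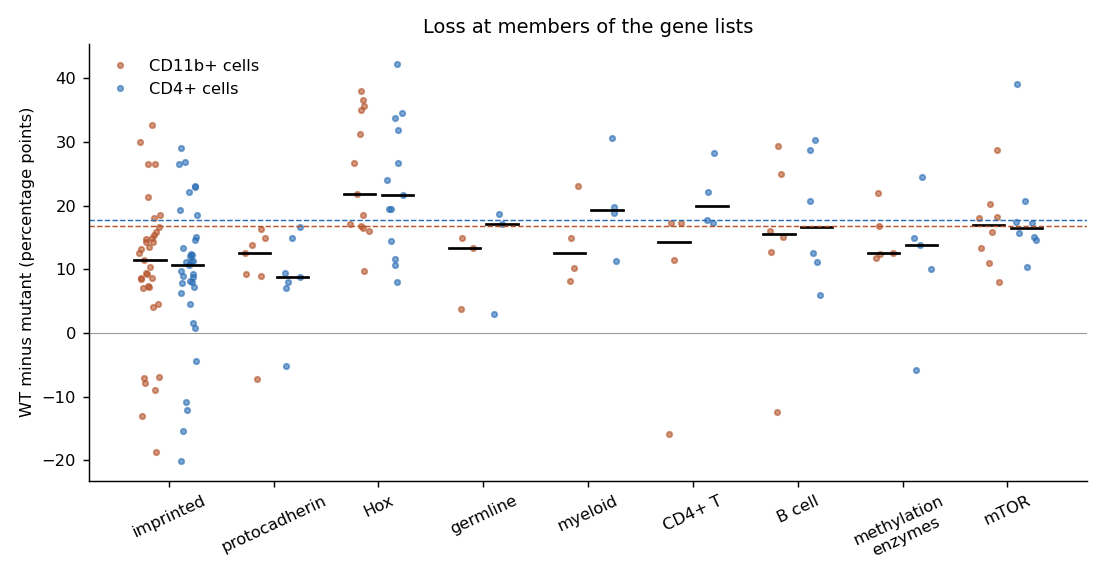
Loss (percentage points) of the members at each gene list, a point per member and cell type, black bars for the list's median and dashed lines for the medians over all members, 16.9 and 17.7 points. The imprinted points reach from above 20 points to below 0 with medians of 11.4 and 10.6 points, and the Hox points all lie above 0 with medians of 21.8 and 21.6 points.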

How the data were processed

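WGBS libraries of splenic CD11b+ and CD4+ cells were mapped by the authors to mm10 with BISCUIT, and the methylation ratios of CpGs were passed to metilene; the study gives its criteria for a differentially methylated region, while versions, other settings of the run and a coverage minimum are not given in the sources used here. The percent values are as deposited: for each region the table of a cell type gives the authors' mean of each group in percent and the number of CpG cytosines, at least 10. The other columns hold the authors' differences, p-values and q-values between genotypes and were not used.

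CD11b+ and CD4+ regions were paired by reciprocal overlap of at least 50%. Starts and genes came from GENCODE M21, CpGs and soft-masking from the mm10 sequence. Regions were named by the nearest protein-coding start: 5 each with the largest loss in both cell types, the lowest, the largest difference in each direction and the most cytosines, and up to 10 at imprinted genes. The pairing was tested on simulated intervals. Members and gene lists were chosen with earlier results of these data known. Python 3.11.15, numpy 2.4.6, pandas 2.3.3, pysam 0.24.0, scipy 1.17.1 and matplotlib 3.10.9 were used.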

Additional observations from a re-analysis of the deposited data

How the results depend on the processing

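No paired analysis was possible because the tables give group means and no value per mouse, so leaving out a mouse could not be tried either. A value was counted as moved when it left the 95% binomial interval of its median or share over regions, which covers the number of regions and not the spread between mice; 33 of 71 values stayed within it, among them all values without the members at imprinted genes or without mostly soft-masked members. The alternatives with WT means within 2 points, with relative loss in the comparison of cell types, and all those for the share above 20 points were chosen after seeing the data. The number of members was 4132 with a reciprocal overlap of 80%, 4817 and 16437 with windows of 40 to 60 and 30 to 70 percent, 277 with more than 20 cytosines in both tables, 5306 with 1 member per 100 kb and 1825 with WT means within 2 points. In these settings the median loss in CD11b+ cells was 17.1 with the 80% overlap, 17.1 and 16.6 with the windows, 23.2 with more than 20 cytosines and 16.65 with WT means within 2 points; in CD4+ cells it was 23.8 and 16.9 in the last 2. Weighting by cytosines gave 17.3 and 18.2 points. With the window set on the other cell type alone the medians were 15.5 points in CD11b+ and 18.1 points in CD4+ cells. The median CD4+ minus CD11b+ loss was 0.776 with the 80% overlap, 0.708 with the narrow window and 0.179 with WT means within 2 points, and it reversed to -0.458 as a percent of the WT mean. The share lower in both was 98.5%, 99.3% and 98.6% with the overlap, the cytosines and the WT means within 2 points. The share above 20 points in CD11b+ cells was 36.1% with the overlap and 66.1% with the cytosines, and in CD4+ cells 38.0% with the narrow window, 67.5% with the cytosines and 35.6% with WT means within 2 points. The difference of the median loss between the densest and the sparsest group, 5.55 points in CD11b+ and 5.53 in CD4+ cells, was 4.08 and 4.80 with the cytosines of the tables per length, and 12.5 and 10.7 as a percent of the WT mean. The difference between members within 1 kb and over 100 kb from a start, 1.65 and 1.85 points, was 3.03 and 3.17 with the starts of all annotated genes, and 3.38 and 3.30 as a percent of the WT mean. With promoters of 2 kb to each side 21.4% of the members and 10.1% of all pairs lay in one. The cause of these moves was not tested, except that members with more cytosines had larger losses, and fewer regions widen the interval.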
